A study of Mus musculus with 44 samples.

Results

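Very long genes were taken as autosomal protein-coding genes whose annotated body spans 500 kb or more, and the CTCF peaks that lie inside them were described in *Setdb1* KO and WT mouse embryonic stem cells (ESCs). The GENCODE M21 annotation of the mm10 (GRCm38) genome holds 20807 autosomal protein-coding genes. Of these, 214 genes made up the set, after 7 genes were left out by the rule. Together the 214 bodies cover 180.3 Mb, with a median length of 730.3 kb and a longest entry of 4435 kb. Of the 214 genes, 102 are neural genes by lists of adhesion, synaptic, receptor, channel and axon guidance genes, and 112 are not.

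The study profiled CTCF by ChIP-seq, which sequences the DNA fragments bound by a protein, and 1 deposited list of peaks per condition was used. *Setdb1* KO ESCs carry a conditional *Setdb1* allele that was deleted by 800 nM 4-hydroxytamoxifen (4-OHT) over 4 days, and these cells were harvested on day 6. WT ESCs are given by genotype alone, and the labels do not say whether they also received 4-OHT. The methods name a single WT clone. Both are labelled as strain TT2, an F1 of C57BL/6 and CBA, and the same CTCF antibody was used in both. The labels also list a second CTCF sample of each condition, which was not analysed here. With 1 peak list per condition the replicate error is unknown, so no test between *Setdb1* KO and WT was run, and the intervals below are 95% intervals that cover counting error only. Peak lists hold no expression values, so the labelled cell type could not be checked against marker genes.

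CTCF is a DNA-binding protein with a row of zinc fingers. It stops the cohesin complex as cohesin extrudes loops of chromatin, and it acts as an insulator at the borders of chromatin domains. SETDB1 is the enzyme that places trimethylation on lysine 9 of histone H3 over much of the silent genome of ESCs. The longest genes of mammals are mostly genes of neurons, with small exons spread over large introns, and they encode cell adhesion molecules, receptors, ion channels and synaptic scaffolds. Several of them lie at common fragile sites, regions that tend to break when DNA replication is slowed.

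Very long genes held fewer CTCF peaks per Mb than any class of shorter genes, in both lists. They contained 2455 peaks of the *Setdb1* KO list and 1872 peaks of the WT list. This was 13.6 peaks per Mb in *Setdb1* KO ESCs (13.1–14.2, exact Poisson interval) and 10.4 peaks per Mb in WT ESCs (9.92–10.9). The rest of the autosomes had 24.4 (24.2–24.6) and 18.1 peaks per Mb in *Setdb1* KO and WT ESCs. Density was higher in each shorter class of genes. In *Setdb1* KO ESCs it was 19.3 peaks per Mb in the 484 genes of 250 to 500 kb, 26.8 in genes of 100 to 250 kb, 38.5 in genes of 20 to 100 kb and 50.1 in genes under 20 kb.

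**Figure D1:**
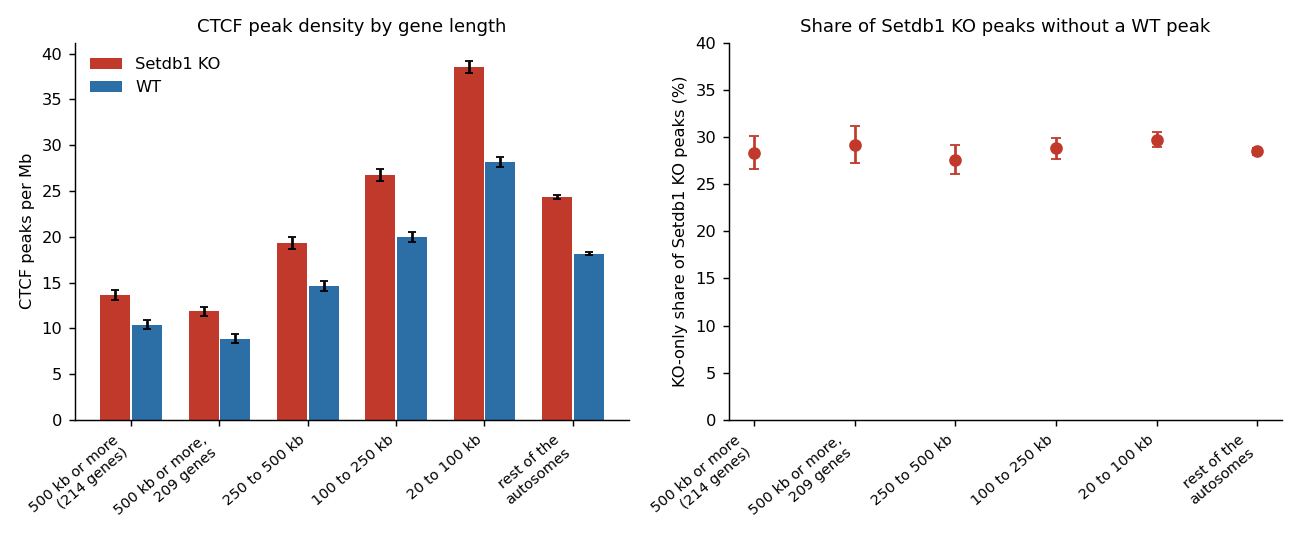
CTCF peaks per Mb of gene body in *Setdb1* KO and WT ESCs (left, with exact Poisson 95% intervals) and the share of *Setdb1* KO peaks that no WT peak overlaps (right, with Wilson 95% intervals), for very long genes and classes of shorter genes. Density is lowest in very long genes in both lists, while the KO-only share lies between 27.6% and 29.7% in every class of genes.

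Over the same bodies, 695 of the 2455 *Setdb1* KO peaks overlapped no WT peak by even 1 bp, and these are called KO-only. They made up 28.3% of the *Setdb1* KO peaks in very long genes (26.6–30.1%, Wilson interval), against a background of 28.5% over all autosomal *Setdb1* KO peaks. The background lay inside the interval. In the rest of the autosomes the share was 28.5% (28.1–28.9%). When the *Setdb1* KO list was held to its strongest peaks, as many as the WT list has, the KO-only share was 11.5% in very long genes and 11.5% in the rest of the autosomes. The density was then 10.05 peaks per Mb in *Setdb1* KO (9.59–10.5) and 10.4 in WT ESCs (9.92–10.9), so it was no longer higher in *Setdb1* KO. WT-only peaks were few, at 97 of 1872 WT peaks in very long genes, or 5.18% (4.27–6.28%), against a background of 3.26% over all autosomal WT peaks and 3.18% (3.01–3.35%) in the rest of the autosomes. The interval of the WT-only share in very long genes lay above that of the rest.

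At the 1735 sites where 1 *Setdb1* KO peak paired with 1 WT peak, the CTCF signal inside very long genes was higher in *Setdb1* KO ESCs. The signal used here is the pileup, the number of ChIP fragments stacked over the summit of a peak. The summed pileup was 98492 fragments in *Setdb1* KO ESCs and 70294 fragments in WT ESCs, a ratio of 1.40 (1.39–1.41, exact Clopper-Pearson interval). The median ratio over sites was 1.39 with quartiles of 1.19 and 1.66, against a median of 1.36 and a ratio of sums of 1.38 (1.37–1.38) in the rest of the autosomes. A ratio of 2 or more was found at 183 sites, or 10.5% (9.19–12.1%), against a background of 9.44% over all autosomal pairs. A ratio under 1 was found at 141 sites, or 8.13%, against a background of 7.32%. The number of ChIP tags worked out from the lists was 27.6 M in *Setdb1* KO and 27.4 M in WT ESCs, so depth was close to equal. The *Setdb1* KO list was nonetheless longer and stronger over the whole genome, with 59698 peaks against 44241 in WT, and a higher ChIP efficiency in that 1 library and more CTCF on chromatin cannot be told apart.

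Weak peaks carried most of the KO-only class. When all autosomal *Setdb1* KO peaks were divided into 3 equal groups by fold enrichment, 564 of the 850 peaks of very long genes in the weakest group (66.4%) were KO-only, against 69.5% in the rest of the autosomes. In the middle group this was 128 of 856 peaks, or 15.0%, against 15.5%, and in the strongest group 3 of 749 peaks, or 0.40%, against 0.73%. No KO-only peak fell in the strongest group among the neural genes (0 of 288 peaks, an upper Wilson bound of 1.32%). KO-only peaks of very long genes had a median fold enrichment of 5.02 and a median pileup of 18 fragments. Shared peaks had a median fold enrichment of 12.7, with median pileups of 51 fragments in *Setdb1* KO and 36 fragments in WT ESCs.

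Among the 214 entries, 5 are not single genes in the usual sense. *Gm20388*, *Gm37240*, *Gm42416*, *Gm37013* and *Gm37388* are annotated models that run across 5 or more other protein-coding genes. *Gm20388* spans 71 such genes over 4435 kb of chromosome 8, and held 275 *Setdb1* KO peaks, of which 68 were KO-only, and 228 WT peaks. *Gm42416*, *Gm37013* and *Gm37388* overlie the protocadherin clusters on chromosome 18, a known array of CTCF-bound promoters, and held 93, 88 and 86 *Setdb1* KO peaks, largely the same ones. These 5 models had 59.1 peaks per Mb in *Setdb1* KO and 49.2 peaks per Mb in WT ESCs, with a KO-only share of 23.7%. Without them, 209 genes remained, with 11.9 peaks per Mb (11.3–12.4) in *Setdb1* KO and 8.88 in WT ESCs, a KO-only share of 29.2% (27.3–31.2%) and a ratio of sums of 1.41. The values by position, spacing, GC content and own exon below leave these 5 models out.

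The higher peak number in *Setdb1* KO ESCs was spread over the set rather than held by a few genes. Of the 214 genes, 179 had more peaks in *Setdb1* KO than in WT ESCs, 29 had equal numbers and 6 had fewer. The *Setdb1* KO list is longer over the whole genome, at 59698 against 44241 peaks, and this count was not made for shorter genes. It is therefore not a trait of very long genes, and the same limit holds for such counts in the gene lists below. The 6 with fewer were *Opcml*, *Asic2*, *Negr1*, *Hs6st3*, *Ptprm* and *Iqcm*, of which *Opcml*, *Asic2* and *Hs6st3* were named after their values were seen. At least 1 KO-only peak was present in 195 of the 214 genes, or 91.1%. The background is 26.4% over autosomal protein-coding genes of all lengths, but longer genes held more peaks, and 78.9% of genes of 250 to 500 kb also had one. The median gene held 8 *Setdb1* KO peaks and 6 WT peaks.

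**Figure D2:**
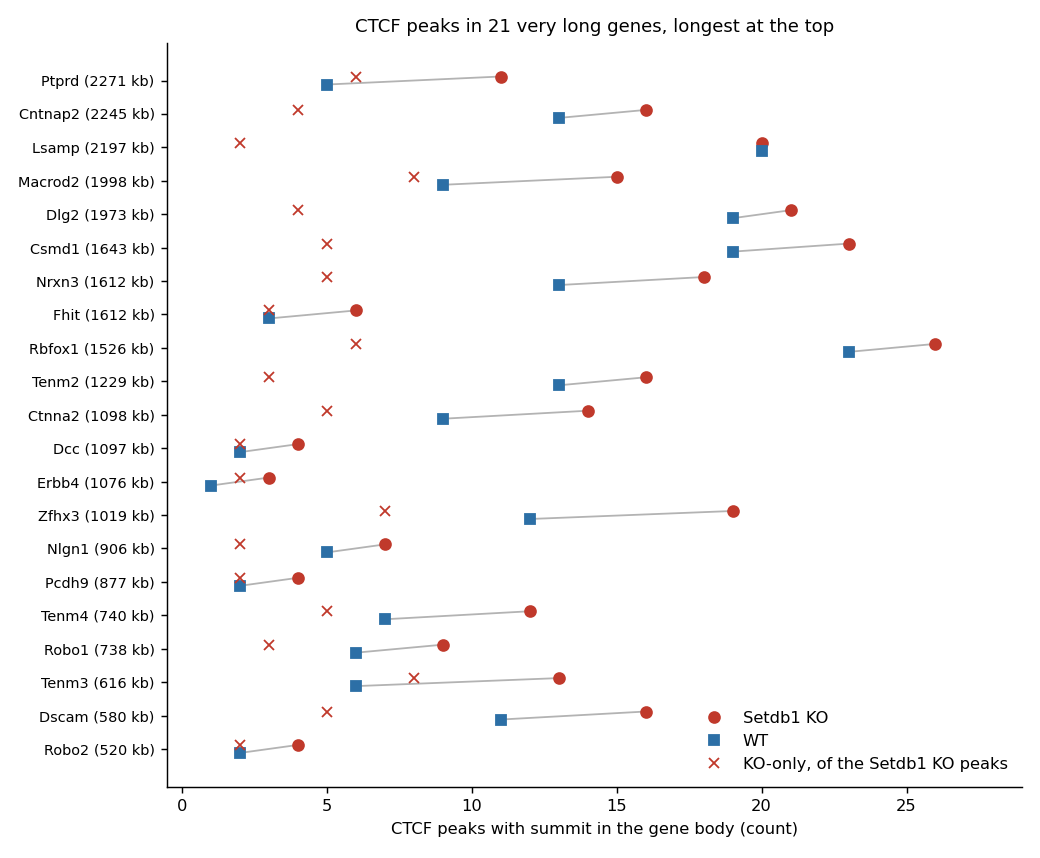
Number of CTCF peaks with the summit in the body of 21 very long genes, in *Setdb1* KO (circles) and WT ESCs (squares), with KO-only peaks as crosses and genes ordered by length. The circle lies right of the square in every gene but *Lsamp*, where both lists hold 20 peaks.

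Genes that bridge and shape synapses made up the largest neural list. The 41 genes for synaptic adhesion and other neuronal surface proteins held 422 *Setdb1* KO peaks, or 9.93 peaks per Mb, and 7.25 per Mb in WT ESCs. Their KO-only share was 30.8% (26.6–35.4%), and 36 of the 41 had more peaks in *Setdb1* KO ESCs. *Ptprd*, a receptor phosphatase that organizes presynaptic terminals and the longest gene that is not a spanning model, lies at chr4:75941238-78211961 on the minus strand. It held 11 *Setdb1* KO peaks against 5 in WT, and 6 of the 11 were KO-only (54.5%, 28.01–78.7%). Its 6 KO-only summits had pileups of 13 to 38 fragments and lay in introns from 556.2 to 2175 kb after the gene start. Its 5 shared sites had 31, 78, 48, 45 and 27 fragments in *Setdb1* KO ESCs and 24, 54, 27, 33 and 18 in WT ESCs. Every one of these pairs was higher in *Setdb1* KO, with a ratio of sums of 1.47 (1.19–1.81).

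The 3 teneurins of the set, large adhesion proteins that link partner neurons, all had more peaks in *Setdb1* KO ESCs. *Tenm3* had the highest KO-only share of the 95 genes with 10 or more *Setdb1* KO peaks, at 8 of 13 peaks (61.5%, 35.5–82.3%), against 6 peaks in the WT list. Its 8 KO-only pileups ran from 17 to 29 fragments, and 6 of these summits lay between 163.0 and 295.3 kb after the gene start, a stretch where WT ESCs had no peak. *Tenm4* had 12 and 7 peaks in *Setdb1* KO and WT ESCs with 5 KO-only. *Tenm2* had 16 and 13 with 3 KO-only. The order of their KO-only shares could not be resolved at these peak numbers, since the intervals of *Tenm3* and *Tenm4* (19.3–68.0%) overlap, as do those of *Tenm3* and *Tenm2* (6.59–43.0%).

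The neurexin gene *Nrxn3* and genes related to it had mostly shared sites, as did the autosomes, with a background KO-only share of 28.5%. Mostly shared sites are therefore not a trait of these genes. *Nrxn3*, a presynaptic receptor, had 18 peaks in *Setdb1* KO and 13 in WT ESCs with 5 KO-only. *Nlgn1*, the postsynaptic partner neuroligin, had 7 and 5 peaks, and its 5 shared sites had 59, 38, 91, 41 and 54 fragments in *Setdb1* KO against 67, 38, 61, 24 and 31 in WT ESCs. The first of these sites was lower and the second equal in *Setdb1* KO, so a higher pileup did not hold at every site of the gene. *Cntnap2*, a neurexin relative that groups potassium channels along axons, had 16 and 13 peaks with 4 KO-only, and its KO-only pileups were 22, 14, 31 and 25 fragments.

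*Lsamp* and *Negr1*, members of the IgLON family of adhesion proteins, did not show the excess of *Setdb1* KO peaks. *Lsamp* held 20 peaks in each list with 2 KO-only (10.0%, 2.79–30.1%) and 1 WT-only. *Negr1* held 6 peaks in *Setdb1* KO and 8 in WT ESCs, with 1 KO-only peak of 14 fragments and 3 WT-only peaks of 16, 24 and 22 fragments. At its 5 shared sites, however, the pileups were 67, 90, 47, 21 and 65 in *Setdb1* KO against 26, 65, 26, 12 and 53 in WT ESCs. *Negr1* thus had more WT-only than KO-only peaks together with a median ratio at shared sites of 1.75, the fifth highest of the 135 genes with at least 5 paired sites, and a ratio of sums of 1.59 (1.32–1.93). *Csmd2*, which encodes a large synaptic membrane protein, was the only gene with 10 or more *Setdb1* KO peaks that had no KO-only peak. All its 10 peaks were shared, which allows a KO-only share of up to 27.8%.

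*Sdk1*, which encodes a sidekick adhesion protein that guides layer-specific synapses in the retina, had the highest median ratio at shared sites of the 135 genes with at least 5 paired sites. Its 18 paired sites had a median ratio of 1.94 and a ratio of sums of 1.85 (1.68–2.04), from 1140 fragments in *Setdb1* KO and 616 in WT ESCs. At the site 870.7 kb after the gene start the pileup was 94 fragments in *Setdb1* KO and 21 in WT ESCs. A site 767.2 kb after the start had 94 and 26 fragments. Only 1 of its 18 pairs was lower in *Setdb1* KO, with 18 fragments against 21.

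**Figure D3:**
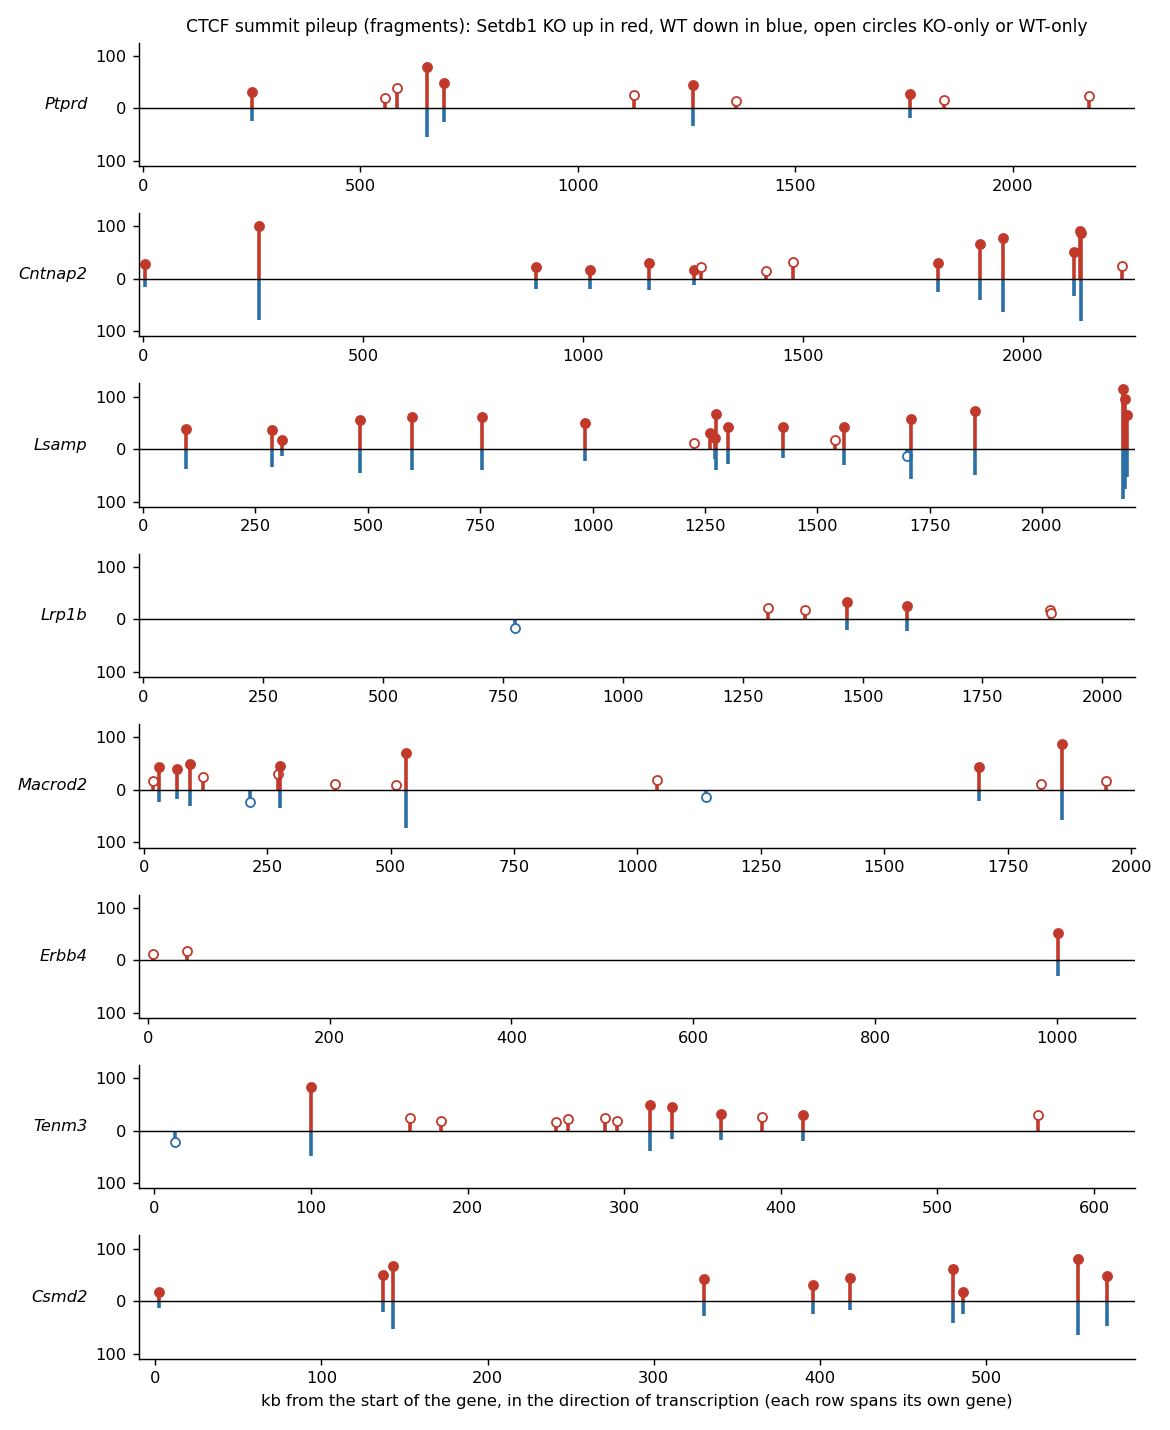
Every CTCF summit of 8 very long genes, placed by its distance in kb from the gene start, with the pileup in fragments drawn upwards for *Setdb1* KO (red) and downwards for WT ESCs (blue). Open circles are peaks that only 1 list holds, and a filled circle without a blue line overlaps a WT peak that has no one-to-one partner. *Ptprd* and *Tenm3* carry 6 and 8 KO-only summits, and *Csmd2* carries none.

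Scaffold, release and cytoskeletal genes of neurons held more peaks per Mb than the adhesion genes. The 26 genes of this list had 326 *Setdb1* KO peaks, or 15.0 per Mb, with 12.1 per Mb in WT ESCs and a KO-only share of 25.2% (20.8–30.1%). *Ank3*, an ankyrin of the axon initial segment, had 30 and 26 peaks in *Setdb1* KO and WT ESCs with 4 KO-only. *Ank2*, its close relative, held 20 peaks in each list with 1 KO-only (5.0%, 0.89–23.6%). *Anks1b*, a postsynaptic scaffold, stood at the other end with 17 and 9 peaks and 8 KO-only (47.1%). *Dlgap1*, another postsynaptic scaffold, had 20 and 13 peaks with 8 KO-only, and 5 of its KO-only summits lay within 760.5 to 805.0 kb after the start, interspersed with shared peaks. *Dlg2*, which anchors glutamate receptors, had 21 and 19 peaks, with 4 KO-only and a median ratio of 1.58. The low-density end of the list was *Lrp1b*, an endocytic receptor gene, with 6 and 3 peaks over 2058 kb.

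The 7 neurotransmitter receptor genes had the lowest density and the highest KO-only share of the gene lists, on few peaks. They held 43 *Setdb1* KO peaks against 25 in WT, which was 7.28 and 4.23 per Mb, and 18 of the 43 were KO-only (41.9%, 28.4–56.7%). The lower bound of that interval lies just under the background of 28.5%. *Grid1*, a glutamate receptor of the delta type, gave 5 of the 18 KO-only peaks from 10 peaks in all. *Gabrg3*, a GABA receptor subunit, had 7 and 5 peaks and a median ratio at shared sites of 1.07, the joint lowest of the genes with at least 5 paired sites. *Grm5*, a metabotropic glutamate receptor, held a single peak in each list over 550.7 kb.

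The 12 ion channel genes had 11.7 peaks per Mb in *Setdb1* KO and 9.34 in WT ESCs, with a KO-only share of 24.8% (17.6–33.6%). The ryanodine receptors of the set, calcium release channels of internal stores, both had more peaks in *Setdb1* KO ESCs. *Ryr2*, the heart form, had 11 and 7 peaks with 4 KO-only and a median ratio of 1.80. *Ryr3* had 10 and 9 peaks with 1 KO-only and a median ratio of 1.24. *Dpp6*, a partner of potassium channels that was placed on the list of surface proteins, had 26 and 17 peaks with 9 KO-only (34.6%).

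Axon guidance genes were among the sparsest. All 16 genes of this list had more peaks in *Setdb1* KO than in WT ESCs and at least 1 KO-only peak, with 9.15 and 6.74 peaks per Mb and a KO-only share of 30.5% (22.9–39.3%). The netrin receptor *Dcc* had 4 and 2 peaks in *Setdb1* KO and WT ESCs, and the slit receptor *Robo2* had the same numbers. *Robo1* had 9 and 6 peaks. *Erbb4*, a neuregulin receptor, had 3 peaks in *Setdb1* KO and 1 in WT ESCs over 1076 kb. The 2 KO-only peaks of *Erbb4* lay 6.24 and 42.8 kb after its start with 12 and 18 fragments, and its shared site near the end had 52 and 30 fragments.

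Neural genes had fewer peaks per Mb than the other very long genes, and KO-only shares with overlapping intervals. The 102 neural genes had 11.03 peaks per Mb in *Setdb1* KO ESCs (10.4–11.7) against 12.8 (12.03–13.6) in the other 107 genes that are not spanning models, a ratio of 0.86 (0.79–0.94). With the 5 spanning models among the others, the ratio was 0.67 (0.62–0.73). The KO-only share was 28.8% (26.1–31.6%) in neural genes and 29.6% (26.9–32.5%) in the others without the spanning models, a difference of -0.83 percentage points (-4.75 to 3.09). The pileup ratio of sums was 1.39 (1.36–1.41) in neural genes and 1.44 (1.41–1.46) in the others without the spanning models.

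Common fragile site genes, 18 in number, had 10.2 peaks per Mb in *Setdb1* KO and 7.55 in WT ESCs and a KO-only share of 31.0% (25.1–37.7%). *Fhit*, a tumour suppressor at the fragile site FRA3B in human, had 6 and 3 peaks. *Macrod2*, a hydrolase of ADP-ribose, had 15 and 9 peaks with 8 KO-only (53.3%, 30.1–75.2%) and 2 WT-only. *Cdh13*, a cadherin anchored by lipid, had 34 and 33 peaks with 4 KO-only (11.8%, 4.67–26.6%). *Macrod2* and *Cdh13* thus sat on opposite sides of the background with intervals that exclude it. Over all 95 genes with 10 or more *Setdb1* KO peaks, 3 intervals lay above the background share (*Tenm3*, *Macrod2* and *Mecom*) and 3 below it (*Csmd2*, *Ank2* and *Cdh13*). Among so many 95% intervals, about that many would miss the background by counting error alone, so these genes are not set apart from the rest.

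Transcription factor and chromatin genes had the highest density of the gene lists, at 19.5 peaks per Mb in *Setdb1* KO and 14.2 in WT ESCs over 13 genes, and a KO-only share of 32.6% (26.3–39.6%). *Camta1*, a calmodulin-binding transcription activator, had 49 and 40 peaks with 11 KO-only, the most of any gene that is not a spanning model. *Mecom*, which encodes the zinc finger factor EVI1, had 13 and 8 peaks with 7 KO-only (53.8%, 29.1–76.8%). *Zfhx3*, a homeobox factor, had 19 and 12 peaks with 7 KO-only. The 28 genes for signalling and other adhesion had 14.3 peaks per Mb and a KO-only share of 29.4%, and the 48 genes on no list had 11.3 per Mb and 27.3%.

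Some members had almost no CTCF peak. *Edil3*, an integrin ligand, and *Skint5* had none in either list over 501.8 and 521.6 kb. *Mgat4c*, a glycosyltransferase gene, had 2 peaks in *Setdb1* KO, with 22 and 17 fragments, and none in WT ESCs. *Fstl5*, named after its values were seen, and *Cpq* also had no WT peak, with 2 and 1 in *Setdb1* KO. At the dense end, *Camta1*, *Ank3* and *Nav2* had 51.9, 47.7 and 45.6 peaks per Mb in *Setdb1* KO ESCs and 42.3, 41.4 and 39.9 in WT ESCs, so the density of single genes ran from 0 to 51.9 peaks per Mb.

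Across the 135 genes with at least 5 paired sites, the median ratio of *Setdb1* KO to WT pileup was above 1 in every gene, from 1.07 in *Nell1* and *Gabrg3* to 1.94 in *Sdk1*. It was above the genome median of 1.36 in 80 of the 135. Over all autosomal pairs only 7.32% had a ratio under 1, and the count by gene was not made for shorter genes. A median above 1 can therefore not be called a trait of very long genes. Without the 5 spanning models 130 genes remained, with a median above 1 in 130 and above the genome median in 76. Near the 500 kb limit, the shortest members *L3mbtl4*, *Stpg2*, *Car10*, *Dock1* and *Edil3* (506.3 to 501.8 kb) held 2, 5, 5, 7 and 0 *Setdb1* KO peaks. The longest genes left out by length, *Pde1c*, *Dnm3*, *Cacna1e*, *Abca13* and *Gabrb1* (499.3 to 490.9 kb), held 8, 10, 6, 7 and 2.

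The density of CTCF peaks followed the base composition of the gene body. Over the 209 genes, GC content and *Setdb1* KO peaks per Mb had a Pearson r of 0.70 and a Spearman rho of 0.70, given as a description across genes of the same library. Genes under 37.5% GC had 5.18 *Setdb1* KO peaks per Mb and a KO-only share of 42.1% (35.1–49.5%), and genes of 42.5% GC and over had 21.2 per Mb and 22.4% (19.5–25.5%). The 2 middle classes had 9.26 and 13.6 per Mb and shares of 32.8% and 30.6%. The KO-only share was therefore highest in the AT-rich class of genes, which had few peaks. Single genes of this class varied. KO-only peaks were 2 of 3 in *Erbb4* (36.02% GC) and 4 of 6 in *Lrp1b* (36.4% GC), but 0 of 2 in *Mdga2* (36.3% GC).

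To set this against sequence of like composition, the autosomes were cut into windows of 500 kb. Windows with at least 90% of their bases in very long genes had 4.83 *Setdb1* KO peaks per Mb under 37.5% GC, against 4.23 in windows without any very long gene. In the next classes of GC the values were 8.27 against 9.25, then 12.5 against 18.8, and in windows of 42.5% GC and over 22.4 against 42.2. Very long genes were thus sparser than other windows of the same GC class above 40% GC, and the intervals of density overlapped below it. The top class has no upper limit, and its median GC was 44.0% in windows of very long genes against 45.1% in the others. Its densities were therefore not matched for GC. The KO-only share under 37.5% GC was 33.3% (25.3–42.5%) in windows of very long genes and 47.6% (44.6–50.7%) in the others, with no overlap of the intervals. At 42.5% GC and over it was 20.8% (16.8–25.5%) against 26.8% (26.4–27.2%). Between 37.5% and 42.5% GC the intervals overlapped.

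**Figure D4:**
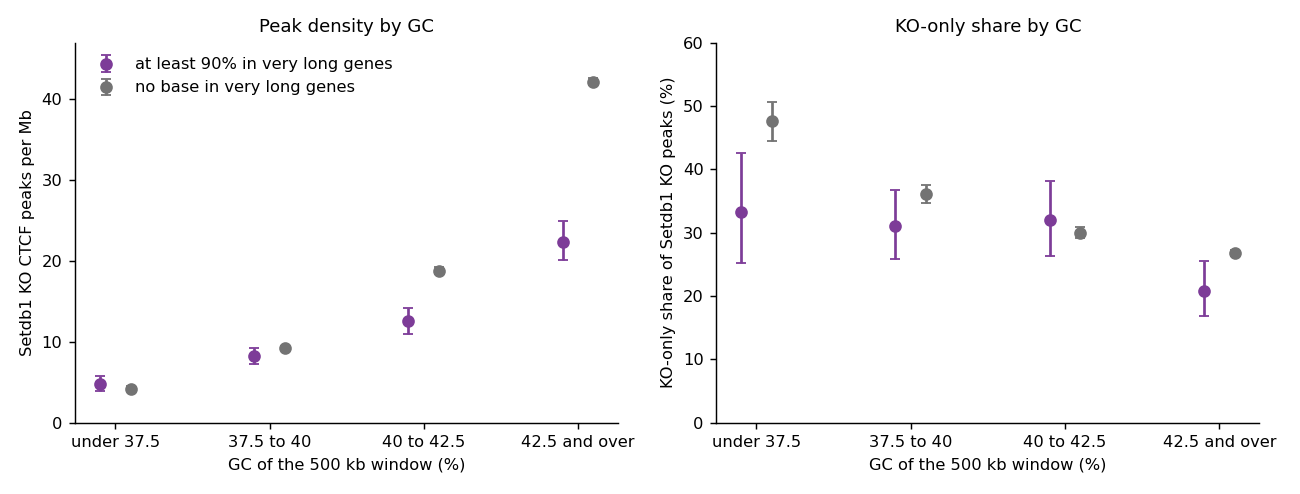
*Setdb1* KO CTCF peaks per Mb (left, exact Poisson 95% intervals) and KO-only share (right, Wilson 95% intervals) in 500 kb windows grouped by GC content, for windows at least 90% inside very long genes and windows with no base in them. Density differs most in the class of highest GC, at 22.4 against 42.2 peaks per Mb, where median GC also differs, at 44.0% against 45.1%. The KO-only share differs most in the class of lowest GC.

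Peaks were not placed evenly along the genes. With each body cut into 10 equal parts from start to end, the last part had 18.4 peaks per Mb in *Setdb1* KO (16.4–20.5) and 14.1 in WT ESCs. The first part had 13.9 and 9.56. The lowest density was in the third part, with 9.28 and 6.74. The shape was alike in both lists, and the KO-only share ran from 23.2% to 34.7% over the 10 parts with overlapping intervals. Both neural genes (17.1 per Mb) and the others (19.8 per Mb) were densest in the last part in *Setdb1* KO ESCs.

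**Figure D5:**
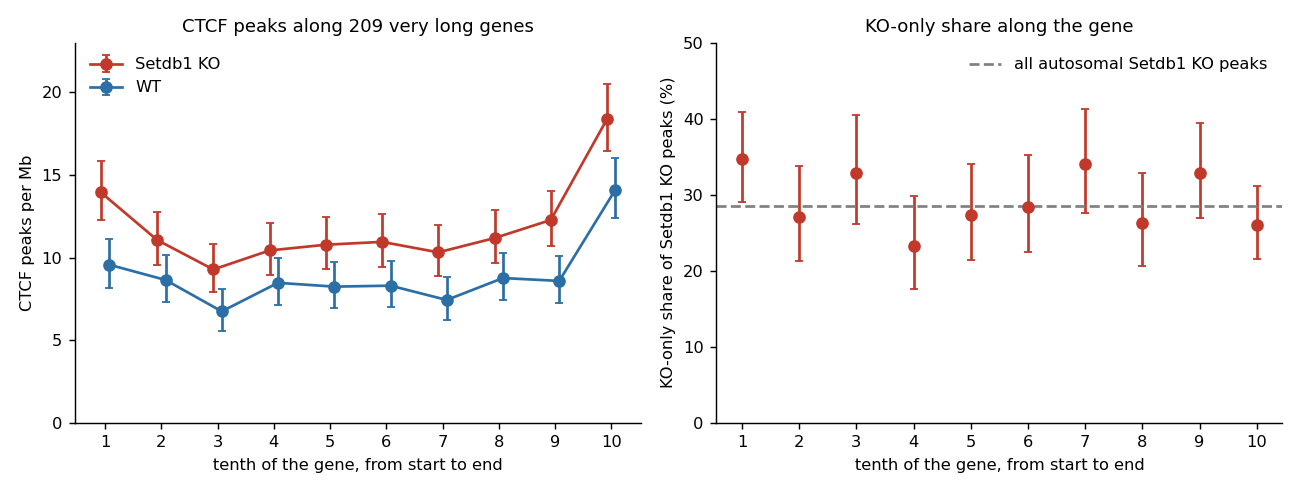
CTCF peaks per Mb in *Setdb1* KO and WT ESCs (left) and the KO-only share of *Setdb1* KO peaks (right) in 10 equal parts of 209 very long genes from start to end, with Poisson and Wilson 95% intervals. The last part stands highest in both lists, at 18.4 and 14.1 peaks per Mb, and the KO-only share follows no trend along the gene.

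In absolute distance, the excess at the start was close to the gene start, and the excess at the end lay further in. The first 1 kb held 12 *Setdb1* KO peaks over the 209 genes, or 57.4 per Mb (29.7–100.3), and 7 WT peaks, or 33.5 per Mb. From 1 to 10 kb the *Setdb1* KO density was 27.6 per Mb, and from 100 to 250 kb it was 10.4. Counted back from the gene end, the last 1 kb held 2 peaks in each list, and the densest stretches were 1 to 10 kb (23.4 per Mb in *Setdb1* KO) and 10 to 50 kb (22.1 per Mb). Genes of 250 to 500 kb had 84.7 *Setdb1* KO peaks per Mb in the first 1 kb and 26.2 per Mb from 10 to 50 kb before the end. Of the 209 genes, 45 (21.5%) had a *Setdb1* KO peak within 1 kb of a start of one of their own transcripts, and 14 of these had a KO-only one. This count was not made for shorter genes, so it cannot be called low or high.

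Introns held nearly all of the peaks. Of the 2058 *Setdb1* KO peaks in the 209 genes, 1958 (95.1%) had the summit in an intron of the gene, 42 (2.04%) in an exon and 58 (2.82%) within 1 kb of a transcript start. Exons made up 1.40% of the length. The KO-only share was 29.3% in introns, 28.6% (17.2–43.6%) in exons and 25.9% (16.3–38.4%) near starts.

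KO-only peaks lay further from WT summits in very long genes than elsewhere, and neighbouring summits of each list were also further apart there. The median distance from a KO-only summit in these genes to the nearest WT summit was 31.9 kb, against 11.6 kb in the rest of the autosomes. Neighbouring summits were 34.3 kb apart in *Setdb1* KO ESCs (median) and 39.6 kb in WT ESCs, against 16.01 and 20.7 kb in the rest. The longest stretch of a gene without a summit had a median over all 214 genes of 274.6 kb in *Setdb1* KO and 327.4 kb in WT ESCs. A stretch of 500 kb or more was present in 29 genes in *Setdb1* KO and in 50 genes in WT ESCs. The stretch was shorter by over 1 kb in *Setdb1* KO in 113 genes and longer by over 1 kb in 14. A longer list leaves shorter stretches by itself, and these stretches were not measured with lists of equal length or in shorter genes.

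*Fhit* and *Lrp1b* gave the opposite ends of this measure among the longest genes. In *Fhit* the longest empty stretch was 504.3 kb in *Setdb1* KO and 1002 kb in WT ESCs, where KO-only summits of 21 and 15 fragments lay 122.4 and 626.7 kb after the start. In *Lrp1b* it was 1304 kb in *Setdb1* KO and 774.0 kb in WT ESCs, where a WT-only summit of 17 fragments lay 774.0 kb after the start. The difference in *Fhit* rests on 2 weak peaks and that in *Lrp1b* on 1.

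The sequence under the peaks was read next, against a CTCF motif learned from the 1000 strongest shared peaks of the *Setdb1* KO list, with the consensus CCAGCAGGGGGCGCNNNNN on either strand. A peak counted as holding the motif when its best match, at most 50 bp from the summit, scored above 99% of control windows taken 1 kb away. It was present in 55.9% of shared peaks in very long genes (53.6–58.2%), against 58.3% in the rest of the autosomes, and in 28.3% of KO-only peaks (25.1–31.8%), against 33.2% (32.5–33.99%). The intervals of the KO-only shares do not overlap, but this depended on the setting. Without the 5 spanning models the motif was in 29.3% of KO-only peaks of very long genes (25.8–33.05%), an interval that overlaps that of the rest. With a threshold above 95% of control windows the direction turned, at 55.1% in very long genes against 53.3% in the rest. Without these models, the motif lay on the strand of the gene in 51.1% of all 1015 motif peaks (48.1–54.2%). In the first of 10 equal parts of the gene this was 66 of 110 (50.7–68.7%) and in the last part 79 of 185 (42.7%, 35.8–49.9%). In these counts matches pointed into the gene body more often than out of it at both ends. Both intervals end close to 50%, and shorter genes were not counted, so the difference is not a settled trait of very long genes.

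The strongest KO-only peaks show which sequences these were. They are printed because a strong summit without any WT peak is the clearest form of the difference between the lists. The motif match of each is given 5′ to 3′ along the motif strand, with the 14 letters of the consensus that carry fixed bases in capitals and the RefSeq GRCm38.p6 sequence as source. The *Camta1* peak, with 65 fragments and a fold enrichment of 20.4, matched at chr4:151682279-151682297 (minus strand). The *Sox5* peak had 46 fragments and matched at chr6:144521007-144521025 (plus), and the *Asic2* peak had 44 and matched at chr11:81631968-81631986 (plus). The *Rad51b* peak had 45 fragments and matched at chr12:79774060-79774078 (minus), and the *Rgs6* peak had 43 and matched at chr12:82837159-82837177 (minus).
Camta1: CCAAAAGGGGGCGCcacat
Sox5: CCAGAAGAGGGCATcagat
Asic2: CCAGCAGAGGGCACcagat
Rad51b: CCAGAAGAGGGTGCtggat
Rgs6: CCAGAAGAGGGAGCcaaat

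Of the 10 strongest KO-only peaks, those in *Gm37240*, *Pcdh15* and *March1* had no motif match. The paired sites with the highest ratio of pileup are shown for comparison, since these were bound in both lists. In *Zfhx3* the pileup was 109 fragments in *Setdb1* KO and 23 in WT ESCs, a ratio of 4.74 (3.00–7.79), at chr8:108037303-108037321 (minus). In *Cdh13* it was 96 and 21, a ratio of 4.57 (2.83–7.72), at chr8:118898242-118898260 (minus). In *Sdk1* it was 94 and 21, a ratio of 4.48 (2.77–7.57), at chr5:142112179-142112197 (minus), and in *Dock2* it was 61 and 14, a ratio of 4.36 (2.41–8.44), at chr11:34414804-34414822 (plus). In *Sox6* the ratio was among the lowest, at 23 fragments in *Setdb1* KO and 42 in WT ESCs (0.55, 0.31–0.93), in an exon at chr7:115489825-115489843 (minus).
Zfhx3: CCAGAAGGGGGCACcatac
Cdh13: CCAGAAGAGGGCGTcaggt
Sdk1: CCAGAAGAGGGCGCcagat
Dock2: CCAGAAGAGGGCGCtggat
Sox6: CCAACAGGAGGCGCcactg

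Several of these matches share the letters AGAAGAGGG, a run that was picked after the sequences were seen. Within the motif match, it was present at 28.96% of the very long genes' paired sites with a ratio of 2 or more (22.9–35.9%), 11.6% of those with a ratio of 1 to 2 and 2.84% of those with a ratio under 1 (1.11–7.07%). The order in very long genes was partly fixed by this choice, since sites that gave the run are among those counted. In the rest of the autosomes, which did not serve to pick it, the shares were 38.1% (36.5–39.7%), 13.6% and 6.09% (5.27–7.03%). All are shares of sites with or without a motif match. The motif followed the ratio as well, at 71.6%, 56.1% and 32.6% of the same classes in very long genes. At their KO-only peaks the run was present in 14.8% (12.4–17.7%), against 12.7% of all their paired sites. The share of summits where more than 50% of the bases around the summit are soft-masked as repeat also followed the ratio, at 46.4%, 17.9% and 11.3% in very long genes. Among KO-only peaks it was 35.1% (31.7–38.7%), against 41.8% (41.0–42.6%) in the rest of the autosomes.

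One repeated word was followed by name. The 16-letter word most frequent around KO-only summits of the whole list, cacatggtggctcaca, was searched on both strands within 50 bp of each summit, and 0.411% of windows 1 kb away held it. It was present at 16 KO-only peaks of very long genes, or 2.30% (1.42–3.71%), against 6.90% in the rest of the autosomes, and at 0.80% of their shared peaks against 2.04%. The word was picked at KO-only summits of this same list. A higher share there than at shared peaks, or under *Setdb1* KO than under WT peaks, was therefore partly fixed by the choice. Very long genes also held fewer copies of the word, at 7.64 per Mb against 22.3 per Mb. Of the 1377 copies in them, 4.65% (3.66–5.89%) lay under a *Setdb1* KO peak and 2.25% under a WT peak, against 7.16% (6.94–7.39%) and 2.91% of the copies elsewhere. Without the 5 spanning models, 1139 copies remained, with 3.34% (2.44–4.55%) under a *Setdb1* KO peak and 1.05% under a WT peak. In the neural genes 11 of 558 copies (1.97%, 1.10–3.50%) lay under a *Setdb1* KO peak.

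Of the 16 KO-only peaks with the word, 12 also had a motif match, which in all 12 lay on the other strand with its centre 31.5 to 43.5 bp from that of the word. The 3 strongest of them are printed with the word in capitals, since word and motif match stood side by side in each. They lie at chr10:69676088-69676117 in *Ank3* (34 fragments), at chr6:47284997-47285026 in *Cntnap2* (25 fragments) and at chr2:20491137-20491166 in *Etl4* (26 fragments), all on the minus strand.
Ank3: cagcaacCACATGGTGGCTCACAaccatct
Cntnap2: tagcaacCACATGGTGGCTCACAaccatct
Etl4: ccagcacCACATGGTGGCTCACAaccattt
The motif matches beside them, all on the plus strand, were at chr10:69676061-69676079, chr6:47284970-47284988 and chr2:20491110-20491128.
Ank3 motif: CCAGAAGAGGGCATcagat
Cntnap2 motif: CCAAAAGAGGGCATcagat
Etl4 motif: CCAGAAGAGGGCATcagat
Around 14 of the 16 summits every base within 50 bp was soft-masked. *Etl4*, which had 23 and 15 peaks in *Setdb1* KO and WT ESCs with 8 KO-only, held 3 of the 16, and *Smyd3*, a lysine methyltransferase gene with 21 and 13 peaks and 8 KO-only, held 2.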

How the data were processed

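CTCF ChIP-seq was analysed as 1 deposited peak list of *Setdb1* KO and 1 of WT ESCs. A second CTCF sample of each condition was not analysed here. Per the methods and processing notes, the authors used Bowtie 1.2 for alignment to mm10, Picard for removal of duplicate reads and MACS2 2.1.0 for peak calling against input. For each peak the authors deposited a fold enrichment (a ratio of pileup over local background), p-values and q-values as −log10, a whole-number score made from the q-value, and the offset of the summit.

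Peaks were assigned to a gene by summit, with gene bodies from GENCODE M21 and sequence from RefSeq GRCm38.p6. The pileup over each summit was solved as a whole number from the deposited fold enrichment and −log10 p within 0.001, which succeeded for 100% of the peaks, and the ChIP tag numbers were worked out from the lowest background. The background used by the caller is local, so a ratio of fold enrichments can differ from a ratio of pileups.

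A *Setdb1* KO peak was KO-only where no WT peak overlapped it by 1 bp or more. Rates have exact Poisson, shares Wilson and pileup ratios exact Clopper-Pearson 95% intervals, for counting error only. The genes named are the longest, the densest and sparsest, those highest in KO-only peaks, those at either end of KO-only share and of pileup ratio, those beside the length limit, and 21 neural, fragile site and transcription factor genes. Some genes that this rule names are not reported here. The members and lists were chosen with earlier results of these data known, and the neural lists come from textbook knowledge. Alternatives changed the overlap rule, the thresholds, the length limit, the stretch of the body, the motif settings and the chromosomes used. The functions were tested on simulated data. Scripts ran under Python 3.11.15 (scipy 1.17.1, numpy 2.4.6, matplotlib 3.10.9, pandas 2.3.3).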

Additional observations from a re-analysis of the deposited data

How the results depend on the processing

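No paired analysis was possible because 1 CTCF list per condition was analysed, and for the same reason no replicate was left out. A second CTCF sample of each condition was not analysed here. The KO-only share of 28.3% was 33.2% with a reciprocal overlap of 50%, 26.3% where no WT peak lay within 1 kb, 23.1% with a −log10 q of at least 5 in the *Setdb1* KO list only, 11.5% with lists of equal length, 26.3% where both lists were held to a fold enrichment of 5 or more and 26.0% with *Setdb1* KO pileups divided by the genome median ratio. The rest of the autosomes moved along, to 33.9%, 25.7%, 22.99%, 11.5%, 26.1% and 26.1%, so the level of the share depends on the calling threshold and its closeness to the genome did not under these settings. Its other alternatives lay between 26.6% and 29.5%. The pileup ratio of 1.40 was 1.33 as a ratio of fold enrichments and 1.38 at sites with 20 or more WT fragments, and otherwise 1.40 to 1.41. The density of neural over other genes, 0.67, was 0.46 in genes of 1 Mb or more. There the spanning model *Gm20388*, with 275 *Setdb1* KO peaks, stays among the others, which hold 589. The ratio was 0.86 without the 5 spanning models, a setting chosen after seeing the data. That setting also placed 15.5% of *Setdb1* KO peaks in the last of 10 equal parts of the gene, against 14.01%. At the 95th percentile of control windows the motif was in 80.1% of shared and 55.1% of KO-only peaks, against 81.8% and 53.3% in the rest of the autosomes. Within 100 bp of the summit it was in 28.1% and 18.7%, where the threshold is set again from larger control windows. Peaks per Mb, 13.6 in *Setdb1* KO and 10.4 in WT ESCs, were 12.5 and 9.66 with a −log10 q of at least 5, 10.05 and 10.4 with lists of equal length, 15.2 and 11.6 in genes of 300 kb or more, 13.0 and 10.1 in genes of 1 Mb or more, 12.6 and 9.57 in parts that no other gene overlaps, and 11.9 and 8.88 without the spanning models. Equal lists thus turned the order of the densities, with overlapping intervals. Neighbouring summits were 26.1 and 29.3 kb apart in *Setdb1* KO and WT ESCs (medians) with the spanning models and 34.3 and 39.6 kb without them. Of 43 values under these settings, leaving out those without the spanning models, 22 lay within the interval of the value reported. Single genes rest on few peaks, and most intervals of their KO-only share include that of the genome.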
